A study of Mus musculus with 16 samples.

Results

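The footpads of pristane-treated AIRmax and AIRmin mice at day 160 were compared over all genes, 4 arrays of each line, which are 8 of the 16 arrays of the series. The lines come from bidirectional selection for a high (AIRmax) or low (AIRmin) acute inflammatory response, started from 8 inbred founder strains, and their mice are labelled as an outbred stock, so the animals of a line are not genetically identical. The compared groups are AIRmax pristane and AIRmin pristane, each 2 males and 2 females labelled as aged 2 to 4 months. They received 0.5 ml of pristane, a mineral oil that provokes arthritis in susceptible mice, intraperitoneally 2 times with 60 days between. Their footpads were taken 160 days after the later injection. The labels do not give the arthritis score of the mice whose RNA was used. AIRmax control and AIRmin control footpads, labelled day 0, 4 arrays each and of the same sexes, gave the difference between the lines at baseline. Their arrays also entered the means behind the gene list scores below, the choice of probe sets, and the tests on all 16 arrays. The control mice carry the same age label, although the pristane footpads were taken 160 days after the later injection. Age and elapsed time therefore cannot be told apart from pristane in any change between the days. Total RNA of the whole footpad was hybridized to Mouse Gene 1.0 ST arrays, and 19938 genes had a probe set of their own. Values are log2 signals, so a difference of 1 is 2-fold, and differences are AIRmax minus AIRmin throughout. A gene is said to be called when its limma p value was under 0.05 after Benjamini-Hochberg adjustment across the 19938 genes.

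The whole footpad holds skin, muscle, tendon, bone and marrow besides the joints, and some arrays stood apart in these tissues. Each list of marker genes was scored per array by averaging how far its genes lay from their 16-array means. Granulocyte precursors, the immature marrow cells that make Elane and Mpo, scored 2.25 and 2.06 on AIRmax arrays 109 and 112 but -0.38 and -0.67 on arrays 110 and 111. In AIRmin they scored 1.66 and 0.44 on arrays 118 and 120, and -1.17 and -1.82 on arrays 117 and 119. Arrays 109, 112, 118 and 120 are called precursor-rich below. Erythroid genes, also of marrow, scored -0.39, 0.42, 0.06 and 0.25 on AIRmax arrays 109 to 112. On AIRmin arrays 117 to 120 they scored -1.29, 1.16, -0.42 and 0.10. Which tissue gave the precursor signal was not tested. Skeletal muscle scored from -1.56 to -0.04 in AIRmax and from 0.23 to 0.65 in AIRmin, so that the lines did not overlap. Keratinocytes scored -2.05 and -0.95 on AIRmax arrays 112 and 109, and between 0.0 and 0.82 on the other 6 arrays. Krt9, the keratin of palm and sole skin, lay between 8.47 and 11.86 on 7 arrays and at 6.46 on AIRmin array 118, which was the only array with so little of this footpad marker. The genes of the labelled sex (Xist, Kdm5d, Eif2s3y and Uty) matched the labels on all 8 arrays. In the sex that lacks the transcript, Xist read 3.45 to 4.32 and the other genes 2.05 to 3.19. The highest of these, 4.32, is used below as the level of a gene without expression. Whether a gene below this level is expressed was not tested. Because treatment, day and line each occupy their own arrays and no scan date was given, a processing batch cannot be told apart from the groups. In bulk RNA of this kind, fewer cells of a type and less RNA per cell cannot be told apart either.

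**Figure D1:**
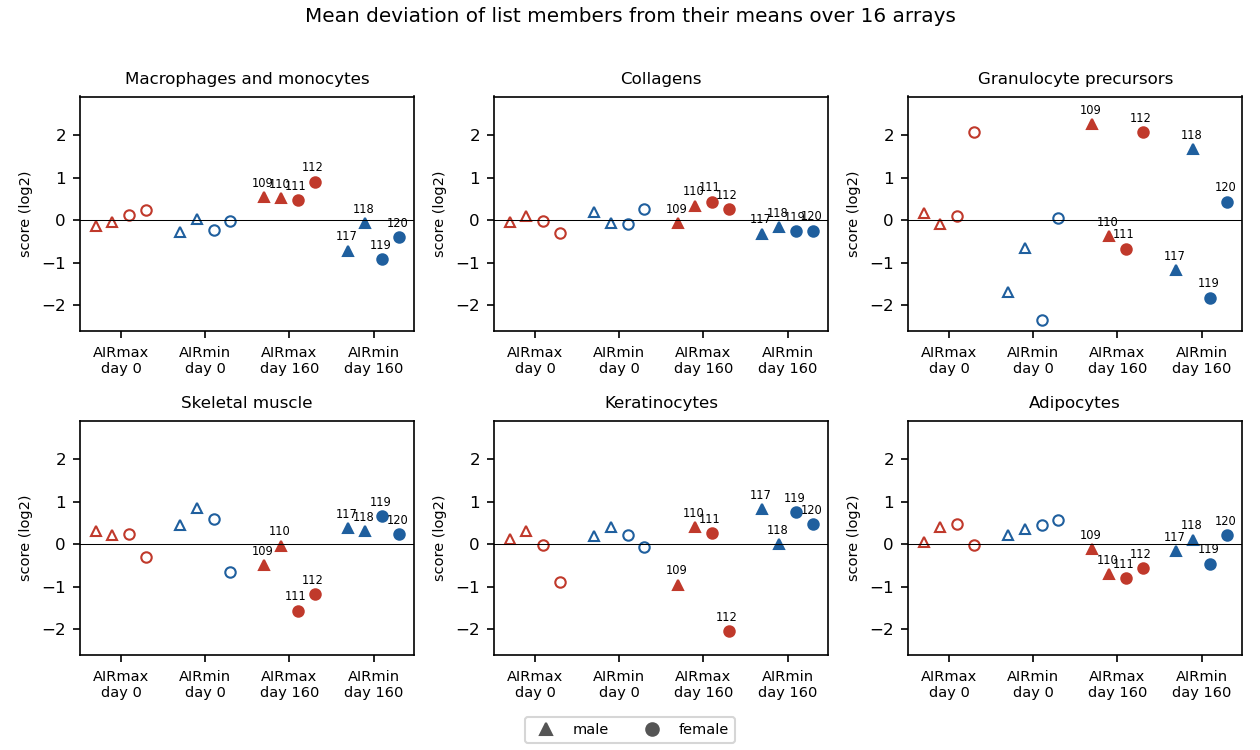
Scores of 6 gene lists on the 16 arrays, as the average distance (log2) of a list's genes from their 16-array means. Triangles are males and circles females, open symbols are day 0 and filled symbols day 160, red is AIRmax and blue AIRmin, and the numbers are those of the pristane arrays. Skeletal muscle separates the lines at day 160, whereas granulocyte precursors spread widely within each line.

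Pristane-induced arthritis is a chronic inflammation of the paw joints in which neutrophils and macrophages are drawn in by chemokines, synovial fibroblasts become activated, and proteases with osteoclasts remodel cartilage and bone. At day 160, 271 genes were called (1.36% of the genes tested), 170 higher (0.853%) and 101 lower (0.507%) in AIRmax footpads. The lists of marker and pathway genes, chosen with earlier results of these data known, held 1025 of the 19938 genes. Of the genes called higher, 78 belonged to a list, among them chemokines, receptors for microbial ligands, macrophage genes, collagens and matrix proteases. Of those called lower 17 did, among them 6 genes of skeletal muscle. Of the 170 genes, 108 were at least 2-fold and 26 at least 4-fold higher, whereas 49 of the 101 were at least 2-fold and 5 at least 4-fold lower. For all 271 genes the 4 AIRmax and the 4 AIRmin arrays did not overlap, which held for 10.8% of all genes. Without overlap the difference can only have the same sign in males and in females. Over all genes the median difference was -0.01 and 49.1% of the differences were positive. An unadjusted p under 0.05 was reached by 3757 of the 19938 genes (18.8%), and SAM called 5.1%, the shares against which such counts for a list are to be read. Calls in a list are likewise to be read against 1.36%, and members without overlap against 10.8%. Calls in a list without certain arrays are to be read against the numbers called over all genes, given below.

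How many genes were called depended strongly on single arrays. Leaving out 1 array gave 197 calls without AIRmax array 109, 520 (206 higher and 314 lower) without 110, 76 without 111 and 42 without 112. Without AIRmin array 117, 118, 119 or 120, the number was 14, 261, 37 or 15. Of the 271 genes, 11 remained under all 8 omissions: H2-Ea, Tpsab1, Prkx, Msr1, Pdpn, Ccl8, Clec4n, Cd300ld, Timp1, Saa3 and Kcnma1. Any other gene named below was lost with at least 1 array. Without the 4 arrays richest in granulocyte precursor signal (109, 112, 118 and 120), 697 genes were called, and with the granulocyte precursor score as a covariate 767. With the score of skeletal muscle, which itself separates the lines, as covariate, 2 genes were called, Kcnma1 and H2-Ea. The part of the muscle score in the other differences was not tested further.

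**Figure D2:**
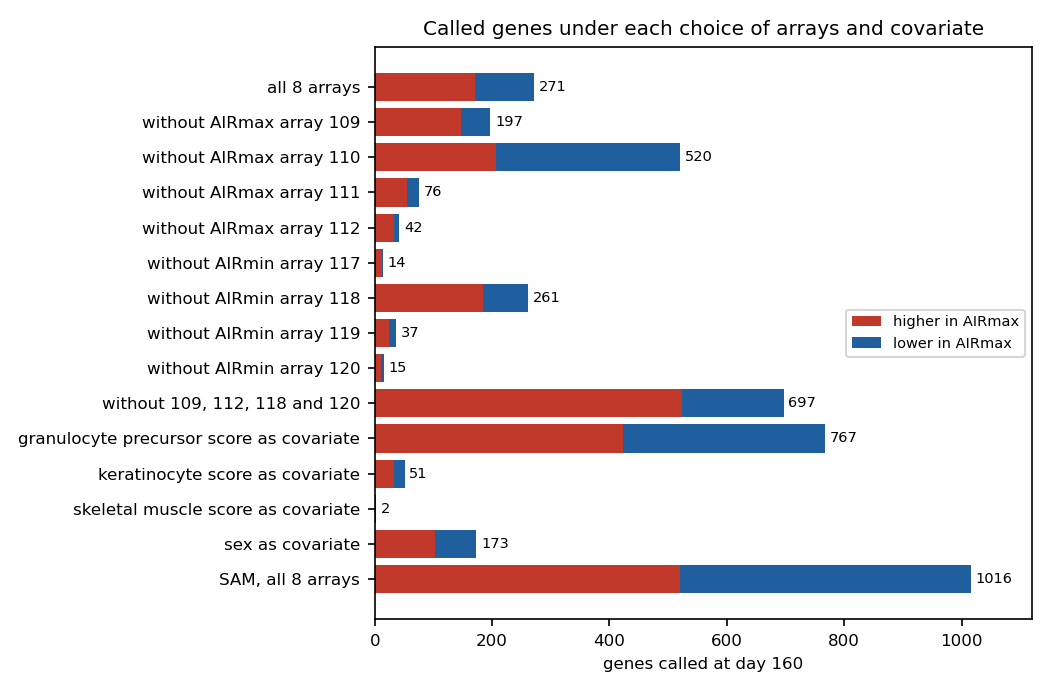
Number of genes called at day 160 (horizontal axis) with all 8 arrays, without each array in turn, and under other settings, split into genes higher (red) and lower (blue) in AIRmax. Among the settings plotted, the count ran from 2 when the skeletal muscle score was a covariate to 1016 with SAM, a permutation-based test. A fit of all 16 arrays, which is not plotted, gave 1519.

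Chemokines, the secreted proteins that direct leukocyte traffic, included some of the largest differences at day 160. Cxcl13, which attracts B cells and follicular helper T cells, read 9.48, 9.29, 11.70 and 11.89 on the 4 AIRmax arrays and 6.61, 6.62, 5.41 and 6.12 on the 4 AIRmin arrays. The lines were thus 2.67 or more apart on every array pair, and the female AIRmax arrays stood above the male ones. The difference was 4.40 ± 0.61 (SE, n = 4 and 4), a 21.1-fold higher signal (limma adjusted p = 0.0203), against 0.55 at day 0. Cxcl5, a neutrophil attractant, read 7.40, 7.50, 6.19 and 8.63 in AIRmax and 3.82, 4.15, 4.05 and 4.26 in AIRmin. The AIRmin signal did not exceed the level of a gene without expression, and the difference was 3.36 ± 0.42 (adjusted p = 0.0139). Cxcl2, another neutrophil attractant, was 2.68-fold higher in AIRmax (1.42 ± 0.25, adjusted p = 0.0361). In all, 3 of 15 measured CXC chemokines were called, all higher, with a median difference of 0.38 over the list. Cxcl1 (0.57 ± 0.18, adjusted p = 0.132) and the interferon-induced Cxcl9 (0.10 ± 0.34, adjusted p = 0.914) did not pass.

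Among CC chemokines 6 of 18 were called, all higher in AIRmax, and the list median was 0.44 at day 160 and -0.06 at day 0. Ccl3, made by activated macrophages and neutrophils, read 8.47, 8.42, 9.99 and 9.93 in AIRmax and 6.43, 6.42, 4.79 and 6.24 in AIRmin, a difference of 3.23 ± 0.48 (adjusted p = 0.0243). Array 119 was the lowest of the AIRmin arrays, and AIRmax females again stood above the males. The other called members attract monocytes for the most part. Ccl8 read 8.54, 8.99, 8.29 and 8.75 in AIRmax and 6.38, 5.46, 6.18 and 6.81 in AIRmin, with a difference of 2.44 ± 0.27 (adjusted p = 0.0108). Its day 0 difference was 1.44, the largest baseline value of the 6, although it was not called there (adjusted p = 0.167). Ccl12, Ccl7, Ccl2 and Ccl9 differed by 2.23, 2.09, 1.74 and 1.34. In Ccl2, Ccl7 and Ccl12, AIRmax array 111 lay more than 1 below the other 3 arrays of its line but above every AIRmin array. Without single arrays the count of called members was lower (1 without array 112, 117, 119 or 120) and for the CXC family also (0 without array 117, 119 or 120). Of 22 chemokine receptors only the atypical receptor Ccrl2 was called (1.38 ± 0.21, adjusted p = 0.0243), and it was lost without array 112, 117, 119 or 120.

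**Figure D3:**
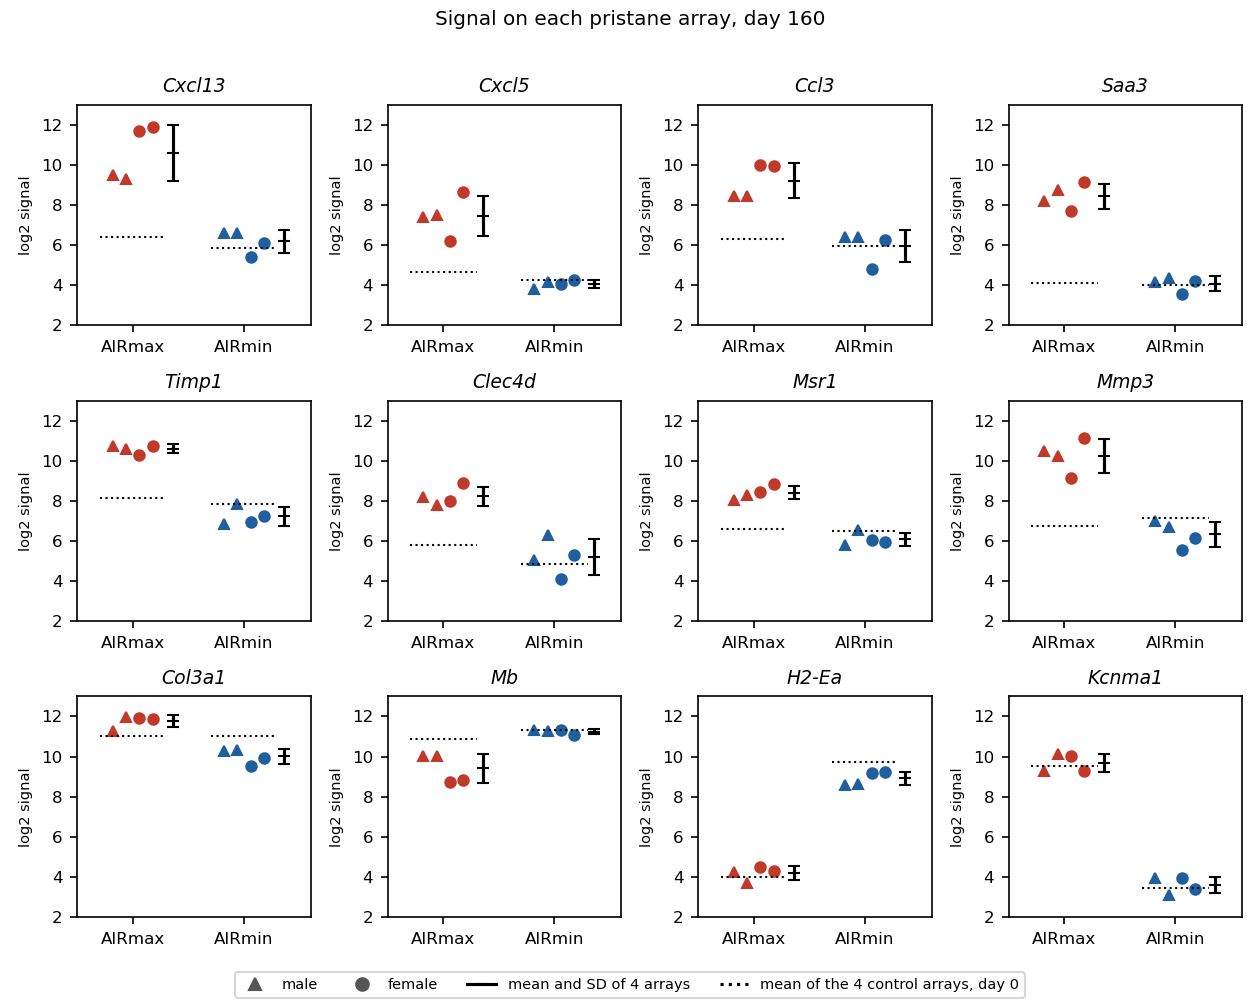
Log2 signal of 12 genes on each pristane array at day 160, with AIRmax in red and AIRmin in blue, males as triangles and females as circles. Bars give the mean and SD of the 4 arrays and dotted lines the mean of the 4 control arrays of the line at day 0. In 9 of the 12 panels, from Cxcl13 to Col3a1, the AIRmax arrays lie above both the AIRmin arrays and their own control mean. Kcnma1 differs as at day 0, H2-Ea by -4.71 against -5.74 at day 0, and Mb is lower in AIRmax.

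Cytokines gave fewer calls than chemokines. Il1b, the secreted interleukin-1 form that drives fever and joint inflammation, read 8.07, 7.86, 6.98 and 8.94 in AIRmax and 6.28, 6.22, 4.98 and 5.66 in AIRmin (2.18 ± 0.41, adjusted p = 0.0431), and its call remained under 1 of 8 omissions, that of array 111. Il1a, the membrane-associated form from the neighbouring gene, went the other way, with 4.56, 4.52, 4.55 and 4.43 in AIRmax and 5.23, 5.08, 5.30 and 5.53 in AIRmin (-0.77 ± 0.11, adjusted p = 0.0243). The neighbouring pair was thus called in opposite directions, although the Il1a signal in AIRmax lay close to the level of a gene without expression. The other 25 of 27 listed cytokines were not called. Tnf differed by 0.95 ± 0.23 (adjusted p = 0.0816) without overlap of the lines, and Il12a by 0.0 ± 0.26 (adjusted p = 0.997). The means of Il10 and Csf2 were no higher than the level of a gene without expression in either line, so no direction is given for them. Il6 read 3.73, 3.0, 2.27 and 4.22 in AIRmax and 2.05, 2.25, 1.85 and 2.25 in AIRmin. All of these lay at or below the level of a gene without expression. The lines did not overlap for Il6, with a gap of 0.02, but at so low a signal no direction is given. Among 28 cytokine receptors 3 were called, namely Tnfrsf1b, a TNF receptor of leukocytes (1.73 ± 0.26), Il4ra (1.0 ± 0.17) and Il10ra (0.97 ± 0.18). None of these 3 was called without array 111, 112, 117, 119 or 120. Il21r missed the threshold (1.41 ± 0.30, adjusted p = 0.057).

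The acute phase program, in which interleukin-6 family cytokines act through STAT3, included Saa3 and Timp1, which were called under all 8 omissions. Saa3, the serum amyloid A gene expressed outside the liver, read 8.19, 8.74, 7.69 and 9.12 in AIRmax and 4.16, 4.39, 3.56 and 4.24 in AIRmin. All 4 AIRmin arrays were near the level of a gene without expression, and the control means of the lines were 4.14 and 3.99. The difference was 4.35 ± 0.30 (adjusted p = 0.000591). Timp1, the inhibitor of matrix metalloproteinases that follows STAT3 activity, read 10.75, 10.58, 10.29 and 10.76 against 6.83, 7.87, 6.94 and 7.25, a 10.4-fold higher signal (3.37 ± 0.22, adjusted p = 0.000476). Socs3, the feedback inhibitor of STAT3 signalling, was 2.9-fold higher (1.54 ± 0.18, adjusted p = 0.0113). Slc39a14, a zinc and iron importer of the acute phase, read 8.46, 8.74, 8.12 and 8.98 against 6.17, 6.96, 5.79 and 6.48 (2.22 ± 0.26, adjusted p = 0.0125). Saa3, Timp1, Socs3 and Il4ra were the 4 called of 18 measured members of the list, and 16 had a positive difference, with a median of 0.90 against 0.10 at day 0. At least 2 were called under each omission (2 without array 117 or 120). Of the NF-kappaB subunits and feedback genes 2 of 16 were called, the ubiquitin-editing inhibitor Tnfaip3 (0.75 ± 0.13) and the adaptor Traf1 (0.76 ± 0.12), whose AIRmin mean was at the level of a gene without expression. Both calls were lost without array 111, 112, 117, 119 or 120. Bcl3 was just outside (1.02 ± 0.21, adjusted p = 0.0531). In the complement list the alternative pathway factor Cfb (1.69 ± 0.22, adjusted p = 0.0166) and the anaphylatoxin receptor C3ar1 (1.45 ± 0.24, adjusted p = 0.0317) were higher, and Cd59a, which blocks the membrane attack complex, was lower (-1.30 ± 0.22, adjusted p = 0.0321). The count of 3 in 19 changed to 0 without array 117 or 120, 1 without array 111, 112 or 119, 5 without array 109.

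Several receptors by which myeloid cells sense microbes were higher in AIRmax. Clec4d (MCL) and Clec4n (Dectin-2) are neighbouring C-type lectins that bind mycobacterial and fungal sugars. Clec4d read 8.21, 7.77, 8.0 and 8.91 in AIRmax and 5.08, 6.29, 4.11 and 5.30 in AIRmin (3.03 ± 0.42, adjusted p = 0.0203). Clec4n read 7.21, 7.28, 6.71 and 8.0 against 4.44, 4.92, 4.33 and 5.10 (2.60 ± 0.27, adjusted p = 0.00853). In both, array 118 or 120 was the highest of AIRmin and array 112 the highest of AIRmax. The next pair in this gene cluster, Clec4a1 and Clec4a3, differed by 2.01 and 1.82. With Clec4b1, a further member whose signal was within the level of no expression in both lines, 5 of 16 C-type lectin receptors were called, and all 16 differences were positive (median 1.23, day 0 0.69). The count was 1 without array 112, 117 or 120, 2 without array 111, 3 without array 119. Of the Toll-like receptor list 4 of 16 were called. These were Tlr1 (1.87 ± 0.23) and Tlr2 (1.73 ± 0.26), which pair to recognize lipopeptides, Tlr8 (1.25 ± 0.24) and the lipopolysaccharide co-receptor Cd14 (1.90 ± 0.27). For Tlr1 the AIRmin mean was no higher than the level of a gene without expression. The number called was 0 without array 117 or 120, 1 without array 119, 2 without array 111 or 112. Cd300ld, an activating receptor of myeloid cells, read 7.62, 7.03, 7.06 and 7.99 against 4.52, 4.92, 4.46 and 5.15 (2.66 ± 0.24, adjusted p = 0.00309), and its neighbour Cd300c2 was also higher (1.78). Among the Fc receptors and ITAM adaptors, Fcgr1, the high-affinity IgG receptor (1.27 ± 0.20), and the inhibitory Fcgr2b (1.30 ± 0.20) were called, 2 of 16. That count was 0 without array 112, 117, 119 or 120, 1 without array 111, 4 without array 118.

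Macrophage genes were the cell type list with most calls, 8 of 22, all higher in AIRmax. Msr1, the class A scavenger receptor, read 8.06, 8.27, 8.46 and 8.85 in AIRmax and 5.81, 6.53, 6.05 and 5.94 in AIRmin, a 5.01-fold higher signal (2.32 ± 0.20, adjusted p = 0.00238) with narrow spread in both lines. Ms4a7 and Ms4a6d, tetraspan genes of monocyte-derived macrophages, were 5.1-fold (2.35 ± 0.29) and 3.96-fold higher (1.99 ± 0.23). Adgre1, which encodes a surface antigen long used to mark mouse macrophages, read 8.29, 8.50, 9.12 and 9.16 against 6.95, 7.43, 7.25 and 7.31 (1.53 ± 0.21, adjusted p = 0.0203). Cd68 (1.29 ± 0.22), Cd14, Fcgr1 and Aif1 (1.08 ± 0.21) complete the called members. The mean score of the list was 0.04 at day 0 and 0.61 at day 160 in AIRmax, and -0.12 and -0.53 in AIRmin. The list median was 1.18 at day 160 and 0.15 at day 0, and the arrays did not overlap for 13 members, against 10.8% of all genes. The count was 1 without array 117 or 120, 2 without array 119 and 4 without array 112. It was 16 without the 4 arrays richest in precursor signal, where 697 of all 19938 genes were called. In the scavenger receptor list Stab1 was called beside Msr1 (0.97 ± 0.16).

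Of the lysosomal genes 27 of 28 had a positive difference, with a median of 0.89 (0.06 at day 0). Called were 5: Ctsc, which activates granule serine proteases (1.21 ± 0.14, adjusted p = 0.0113), Ctsk (1.89 ± 0.38), Ctsl (0.73 ± 0.13), Cd68 and the proton pump subunit Atp6v0d2 (2.31 ± 0.40). The count was 0 without array 117, 1 without array 111, 112, 119 or 120, 11 without array 118. Osteoclasts, the bone-resorbing cells, share part of these genes, and Ctsk, Atp6v0d2 and the fusion protein Dcstamp (1.14 ± 0.23, adjusted p = 0.0487) made 3 of 13 called osteoclast genes. All 13 were positive (median 0.96), and the count was 0 without array 109, 111, 112, 117, 119 or 120, 6 without array 110. Ctsk read 10.27, 10.31, 11.04 and 11.02 in AIRmax and 8.52, 9.60, 7.76 and 9.20 in AIRmin, where the precursor-rich arrays 118 and 120 were the 2 highest. Both called members of 12 itaconate, nitric oxide and arginine genes are effector enzymes of activated macrophages. Acod1, which makes itaconate, read 8.01, 7.90, 6.71 and 8.80 against 6.17, 5.99, 5.05 and 5.67 (2.13 ± 0.41, adjusted p = 0.0436), and inducible nitric oxide synthase Nos2 differed by 1.05 ± 0.17 (adjusted p = 0.029). The call of Acod1 remained under 1 omission, that of array 111. Hmox1, which degrades heme, differed by 1.07 ± 0.18 (adjusted p = 0.0321), and the peptide transporter Slc15a3 missed the threshold (1.37 ± 0.28, adjusted p = 0.0521).

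Neutrophil genes had medians of similar size and no call. Mature neutrophil genes had a median difference of 1.41, with 16 of 17 positive, and granulocyte precursor genes had a median of 1.11, with 8 of 8 positive. No member of either was called by limma or SAM, and 4 and 0 had an unadjusted p under 0.05, against 18.8% of all genes. At day 0 the medians were 1.64 and 1.87. Elane, neutrophil elastase, read 11.68, 8.76, 8.55 and 11.44 in AIRmax and 7.96, 10.67, 7.28 and 9.40 in AIRmin, so the range within each line was larger than the difference (1.28 ± 0.91, adjusted p = 0.496).

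**Figure D4:**
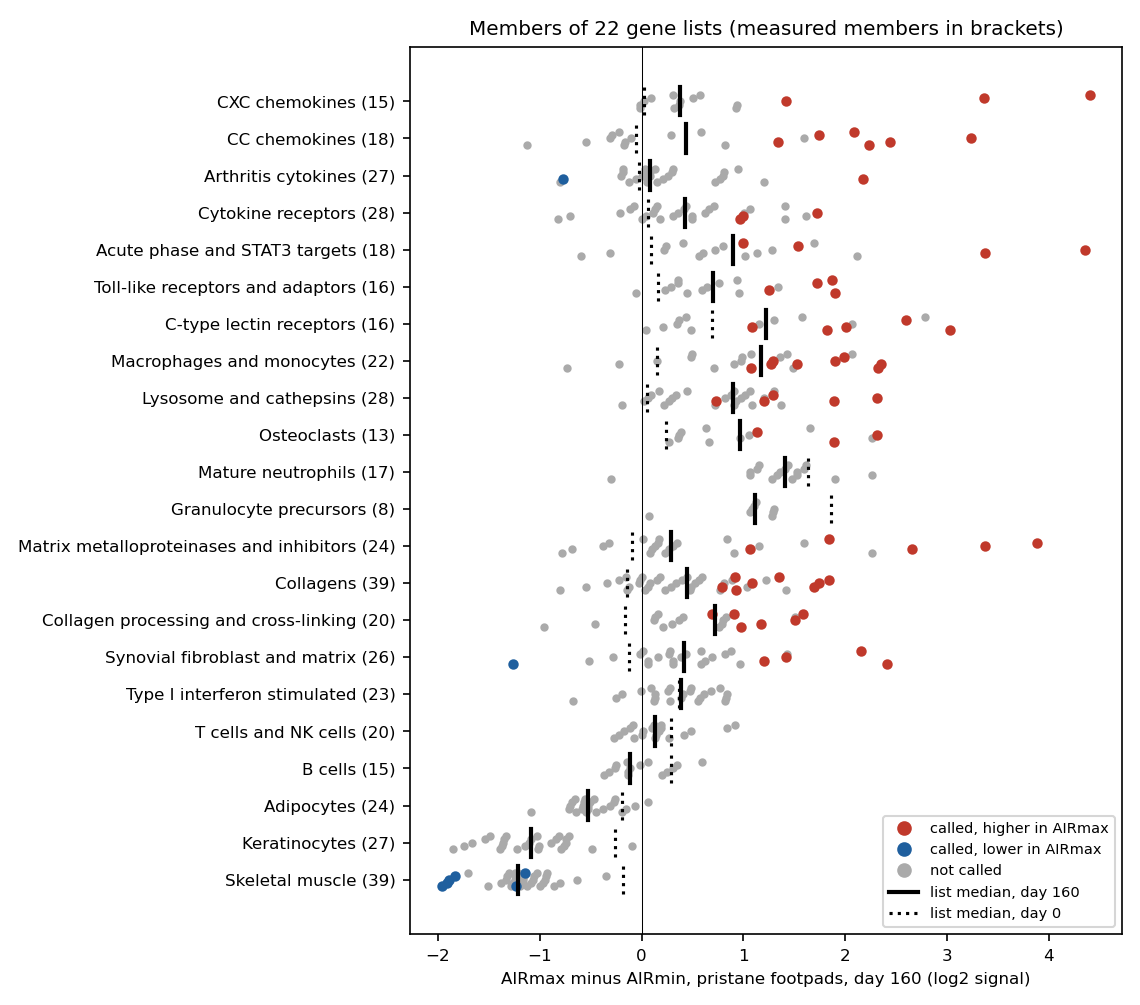
Differences between the lines at day 160 (log2 signal, horizontal axis) for the measured members of 22 gene lists, with called genes in red (higher in AIRmax) or blue (lower) and other genes in grey. Thick bars are list medians at day 160 and dotted bars those at day 0. The medians of macrophages, lysosome, osteoclasts and collagens lie to the right of their day 0 medians, those of granulocyte precursors and mature neutrophils do not, and all keratinocyte and skeletal muscle members lie below 0.

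Matrix-degrading enzymes were among the genes with the largest differences. Mmp3 (stromelysin-1), which cleaves proteoglycans and activates other proteases, read 10.47, 10.22, 9.12 and 11.11 in AIRmax and 6.98, 6.68, 5.55 and 6.16 in AIRmin, a 14.8-fold higher signal (3.89 ± 0.43, adjusted p = 0.0108) against -0.40 at day 0. Its lowest AIRmax array, 111, was still 2.14 above the highest AIRmin array. Mmp13, the main collagenase of the mouse, read 11.24, 10.70, 11.21 and 11.71 against 7.98, 9.90, 7.20 and 9.15 (2.66 ± 0.52, adjusted p = 0.0453). It was high in all AIRmax footpads and varied by 2.70 within AIRmin, where arrays 118 and 120 were highest. Mmp19 (1.84 ± 0.24) and the membrane-type Mmp14 (1.06 ± 0.19) were also called. With Timp1 these were 5 of 24 measured metalloproteinases and inhibitors (median 0.29), and the count was 1 without array 120, 2 without array 112, 117 or 119, 3 without array 111. Of the related ADAM and ADAMTS proteases Adam12 (1.24 ± 0.21) and Adamts1 (0.68 ± 0.13) were called, 2 of 16, with 0 without array 111, 112, 117, 119 or 120.

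The 250 bases before the start of each gene were searched, on both strands, for 8 motifs. These were the TATA box and binding motifs of inflammatory and muscle transcription factors. RefSeq windows of build GRCm38.p6 were at hand for 15614 genes, 123 of the 170 higher and 79 of the 101 lower ones. The AP-1 motif, searched as TGANTCA with any base at N, was in 13% of the higher, 8.86% of the lower and 6.11% of all windows. The TATA box, TATAAA, was in 20.3% of the higher, 17.7% of the lower and 11.2% of all windows. For NF-kappaB the shares were 9.76% of the higher, 7.59% of the lower and 7.87% of all windows, for C/EBP (TTNNGNAA) 36.6% of the higher, 38% of the lower and 33.2% of all windows and for STAT (TTCNNNGAA) 6.5% of the higher, 3.8% of the lower and 6.7% of all windows. The E-box CAGCTG was in 12.2% of the higher, 15.2% of the lower and 12.2% of all windows. These shares describe the letters and were not tested. The last 100 bases before the start are shown for the proteases Mmp3 and Mmp13, for Cd68 and for Ccl9, with the AP-1 motif in capitals, and for Cxcl2 with the NF-kappaB motif in capitals, 5′ to 3′ on the strand of the gene.
Mmp3 (chr9:7445722-7445821, plus strand): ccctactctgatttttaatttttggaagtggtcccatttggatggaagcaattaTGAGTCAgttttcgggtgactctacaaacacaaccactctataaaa
Mmp13 (chr9:7272414-7272513, plus strand): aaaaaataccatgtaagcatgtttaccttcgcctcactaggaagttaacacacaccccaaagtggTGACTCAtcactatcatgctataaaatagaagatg
Cd68 (chr11:69666171-69666270, minus strand): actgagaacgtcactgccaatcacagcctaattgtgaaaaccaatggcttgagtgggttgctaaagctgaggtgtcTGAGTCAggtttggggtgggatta
Ccl9 (chr11:83578637-83578736, minus strand): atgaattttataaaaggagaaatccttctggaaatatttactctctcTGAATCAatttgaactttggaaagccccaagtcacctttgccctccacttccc
Cxcl2 (chr5:90903799-90903898, plus strand): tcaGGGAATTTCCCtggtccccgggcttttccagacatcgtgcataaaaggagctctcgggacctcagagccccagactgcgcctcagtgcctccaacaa
The first base of the motif lies 46 bases before the start in Mmp3, 35 in Mmp13, 24 in Cd68 and 53 in Ccl9. In Cxcl2 it lies 97 bases before, and 2 overlapping matches form the capitals.

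Collagens and the enzymes that process them were called in AIRmax beside the proteases. Fibrillar Col3a1 read 11.30, 11.97, 11.90 and 11.87 in AIRmax and 10.28, 10.34, 9.52 and 9.95 in AIRmin, a 3.34-fold higher signal (1.74 ± 0.21, adjusted p = 0.0139). The difference at day 0 was 0.01, and at day 160 AIRmax lay above and AIRmin below both control means, 11.05 and 11.04. Its neighbour Col5a2 differed by a similar size (1.84 ± 0.24, adjusted p = 0.0166), followed by Col12a1 (1.69), Col6a3 (1.35), Col5a1 (1.09), Col5a3 (0.79) and the neighbouring basement membrane genes Col4a1 (0.93) and Col4a2 (0.92). These were 8 of 39 collagens, with a median of 0.44 against -0.15 at day 0. Collagen I missed the threshold, with 1.42 ± 0.31 for Col1a1 (adjusted p = 0.0614) and 1.22 ± 0.26 for Col1a2 (adjusted p = 0.0568). The collagen count was 0 without array 117 or 120, 2 without array 112 or 119, 3 without array 111, 13 without array 109, and 15 without the 4 precursor-rich arrays. Enzymes that fold and cross-link collagen gave 6 calls of 20 (median 0.72, day 0 -0.16): the cross-linking lysyl oxidase Lox (1.58 ± 0.23, adjusted p = 0.0243), the prolyl hydroxylases P4ha3 (1.51 ± 0.21) and P3h1 (0.98), the lysyl hydroxylases Plod1 (1.17) and Plod3 (0.91), and the collagen chaperone Serpinh1 (0.69). That count was 0 without array 111, 112, 117, 119 or 120. The mean score of these enzymes was -0.01 at day 0 and 0.25 at day 160 in AIRmax, and 0.10 and -0.34 in AIRmin. For collagens it was -0.07 and 0.24 in AIRmax, and 0.07 and -0.25 in AIRmin. Both differences thus include a lower score in AIRmin at day 160 than at day 0.

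In the synovial fibroblast list, Pdpn (podoplanin), a glycoprotein of activated lining fibroblasts, read 8.98, 10.00, 9.07 and 9.65 in AIRmax and 6.87, 7.31, 6.78 and 7.09 in AIRmin, a 5.33-fold higher signal (2.41 ± 0.23, adjusted p = 0.00448). Tnfaip6 (TSG-6), a hyaluronan-binding protein induced by TNF and interleukin-1, read 7.97, 8.29, 8.17 and 8.69 against 5.41, 6.21, 6.85 and 6.04 (2.15 ± 0.28, adjusted p = 0.0166). The fibronectin receptor subunit Itga5 (1.41 ± 0.24) and the proteoglycan Lum (1.20 ± 0.23) were higher and Clic5 was lower (-1.26 ± 0.23). In all, 5 of 26 members were called, with 1 without array 120, 2 without array 111, 112, 117 or 119, 3 without array 109. The mean score of the list was 0.02 at day 0 and 0.19 at day 160 in AIRmax, and 0.15 and -0.35 in AIRmin. Cthrc1, a secreted collagen triple helix repeat protein of activated fibroblasts, read 8.30, 8.89, 9.89 and 9.44 against 6.21, 7.13, 6.38 and 6.46 (2.59 ± 0.33, adjusted p = 0.0165), with the 2 AIRmax females above the males. Sfrp2, a secreted Wnt modulator, was the only called gene of 32 in the Wnt list (1.71 ± 0.22, adjusted p = 0.0166) and was lost without array 117, 119 or 120. Inhba, the subunit of activin A, was the only call of 26 in the TGF-beta and BMP list (1.62 ± 0.30, adjusted p = 0.0413). The citrate-cycle intermediate transporter Slc13a3 had a large and variable difference, with 7.17, 8.64, 10.35 and 9.90 in AIRmax and 5.55, 5.36, 5.80 and 6.07 in AIRmin (3.32 ± 0.59, adjusted p = 0.0362). The cartilage matrix gene Chad was lower in AIRmax (-1.05 ± 0.20, adjusted p = 0.0431), the only call of 24 cartilage and tendon genes.

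All 39 measured skeletal muscle genes had a negative difference, and 6 were called lower in AIRmax. These genes moved with the muscle score given above, which is made from them. The list median was -1.22 at day 160 and -0.18 at day 0, and the lines did not overlap for 29 of the 39 members, against 10.8% of all genes. At day 0 they did not overlap for 0 members, against 10.3% of all genes. Called were 6: the oxygen carrier Mb (myoglobin), the calcium sensor Tnnc1 of slow fibres, the Z-disc proteins Actn2 and Myot, the mitochondrial creatine kinase Ckmt2, and Asb5. Mb read 10.01, 10.05, 8.74 and 8.85 in AIRmax and 11.31, 11.29, 11.32 and 11.08 in AIRmin, so the AIRmin arrays lay within 0.24 of each other while both AIRmax females were more than 1 below the males. Its difference was -1.84 ± 0.30 (adjusted p = 0.0317), and those of Actn2, Tnnc1, Myot, Ckmt2 and Asb5 were -1.96, -1.91, -1.89, -1.23 and -1.14. Outside the list, the muscle LIM protein gene Csrp3 read 6.83, 6.68, 5.77 and 6.09 against 8.08, 9.58, 8.76 and 7.87 (-2.23 ± 0.38, adjusted p = 0.0327), and Smpx (-2.12 ± 0.40), Klhl41 (-1.96 ± 0.35), Apobec2 (-1.61 ± 0.18), Fhl1 (-1.49 ± 0.17) and Myoz2 (-1.45 ± 0.22) were also lower. The abundant contractile and energy genes Acta1 (-1.27 ± 0.33, adjusted p = 0.0904) and Ckm (-1.06 ± 0.31, adjusted p = 0.117) did not pass. The number of called list members was 0 without array 111, 112, 117, 119 or 120, 3 without array 118, 30 without array 110, and 7 without the 4 precursor-rich arrays. Slc2a4, the insulin-responsive glucose transporter of muscle and fat, and the growth factor Igf2 were lower by the fit (-1.13 ± 0.22 and -0.72 ± 0.12). These 2 were the calls in 14 insulin and IGF genes. In the promoter windows described above, the MEF2 motif of muscle genes was in 1.63% of the higher, 8.86% of the lower and 2.48% of all windows, and the CArG box in 0% of the higher, 5.06% of the lower and 1.25% of all windows. The last 100 bases before the start are given for the kelch gene Klhl41 and for Myoz2, which encodes a calcineurin-binding Z-disc protein, with the MEF2 motif in capitals.
Klhl41 (chr2:69670020-69670119, plus strand): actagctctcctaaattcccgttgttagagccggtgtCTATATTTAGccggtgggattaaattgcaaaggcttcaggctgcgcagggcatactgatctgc
Myoz2 (chr3:123034988-123035087, minus strand): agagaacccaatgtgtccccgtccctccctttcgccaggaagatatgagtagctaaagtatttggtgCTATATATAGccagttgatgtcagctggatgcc
The motif begins 63 bases before the start in Klhl41 and 33 bases in Myoz2.

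No skin or fat gene of the lists was called. All 27 keratinocyte genes had a negative difference (median -1.09, day 0 -0.26) and none was called by limma or SAM, with 10 at an unadjusted p under 0.05 against 18.8% of all genes. Krt5 of the basal layer read 11.55, 12.25, 12.20 and 10.55 in AIRmax and 12.53, 12.31, 12.42 and 12.28 in AIRmin (-0.74 ± 0.33, adjusted p = 0.265), so arrays 109 and 112 were low and arrays 110 and 111 were close to AIRmin. Of the adipocyte genes 23 of 24 were negative (median -0.52), 0 were called by limma and 1 by SAM, with 9 at an unadjusted p under 0.05, beside the same 18.8%. Adipoq, which encodes adiponectin, differed by -0.59 ± 0.42 (adjusted p = 0.496). Called genes with lower signal in AIRmax that belong to detoxification were Gsta4, the glutathione transferase of lipid peroxidation products, with 8.46, 6.56, 8.13 and 7.29 against 10.49, 9.14, 9.90 and 9.78 (-2.22 ± 0.42, adjusted p = 0.0426), and Glo1 (glyoxalase 1), with 8.10, 8.66, 8.70 and 7.96 against 9.93, 9.55, 9.86 and 9.69 (-1.40 ± 0.19, adjusted p = 0.0173). They were 2 of 20 (median -0.37), with 0 without array 117, 119 or 120, 1 without array 111 or 112. Adh7, an alcohol and retinol dehydrogenase of epithelia (-1.74 ± 0.32), and the amino acid transporter Slc6a14 (-1.78 ± 0.32) were lower as well. Hhip, a membrane inhibitor of hedgehog ligands, read 4.85, 5.84, 4.74 and 4.41 against 6.68, 6.52, 6.45 and 6.39 (-1.55 ± 0.27, adjusted p = 0.033), the only call of 13 hedgehog genes, and it remained under 1 omission, that of array 110.

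Lymphocyte and interferon genes gave almost no calls. None of 20 T and NK cell genes (median 0.13), 15 B cell genes (median -0.11) or 23 type I interferon-stimulated genes (median 0.38, day 0 0.36) was called by limma or SAM, and 2, 1 and 2 of them had an unadjusted p under 0.05, each a smaller share than the 18.8% of all genes. Of 15 interferon gamma targets only Nos2 was called, and of 10 plasma cell genes only the chaperone Fkbp11 (0.68). Bst1, an ectoenzyme of marrow stroma and myeloid cells that is listed with B cell precursors, read 8.33, 7.31, 8.0 and 8.59 against 4.96, 6.10, 5.17 and 6.20 (2.45 ± 0.35, adjusted p = 0.0204). It was the only call of 11 there. Of the MHC class I list 0 of 21 were called by limma or SAM, with 4 at an unadjusted p under 0.05, and B2m, the light chain, differed by 0.26 ± 0.20 (adjusted p = 0.542). Cell cycle genes were positive in 27 of 27 (median 0.43, day 0 0.69). In that list 0 were called by limma and 1 by SAM, with 4 at an unadjusted p under 0.05. Its score was 0.74, 0.78, 0.36 and -0.09 on arrays 109, 112, 118 and 120, and between -0.56 and 0.04 on the other 4 arrays.

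To see which of these differences were already present without pristane, the lines were compared at day 0 on the other arrays. At day 0, 16 genes were called (0.0802% of those tested), 11 of which were also called at day 160 with the same sign, or 4.06% of the day 160 calls and 68.8% of the day 0 calls. None of the genes called at both times was a chemokine, an acute phase gene or a matrix gene. Kcnma1, the large-conductance calcium-activated potassium channel, read 9.30, 10.13, 10.03 and 9.30 in AIRmax and 3.95, 3.11, 3.94 and 3.41 in AIRmin. The AIRmin arrays were at the level of a gene without expression, and the difference was 6.09 ± 0.26 at day 160 (adjusted p = 2.01e-05) and 6.07 at day 0 (adjusted p = 6.74e-06). H2-Ea, the alpha chain of the class II molecule E, showed the reverse, with 4.24, 3.72, 4.52 and 4.33 in AIRmax and 8.60, 8.65, 9.18 and 9.23 in AIRmin (-4.71 ± 0.21, adjusted p = 2.01e-05) and -5.74 at day 0. None of the other 12 measured genes of the class II list was called by limma. SAM called 5 of the 13, against 5.1% of all genes, and 7 had an unadjusted p under 0.05, against 18.8%. Tpsab1, a mast cell tryptase, read 4.65, 5.09, 5.0 and 4.64 against 6.95, 6.83, 7.67 and 7.42 (-2.37 ± 0.20, adjusted p = 0.0023, day 0 -2.79) and was the only call of 18 mast cell genes. The protein kinase gene Prkx read 7.96, 8.36, 8.13 and 7.85 against 6.50, 6.39, 6.24 and 6.60 (1.64 ± 0.14, adjusted p = 0.00212, day 0 1.76). Glo1, Cd59a, Tlr1 and Cd300ld differed by -1.09, -1.05, 1.18 and 1.54 at day 0 and by -1.40, -1.30, 1.87 and 2.66 at day 160. Pla2g2a, a secreted phospholipase, was called at day 0 (2.67, adjusted p = 3.83e-05) but not at day 160 (1.19 ± 0.30, adjusted p = 0.0853).

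The 170 genes that were higher at day 160 had a median difference of 1.12 there and of 0.14 at day 0, and 111 of them were positive at day 0. The 101 lower genes had medians of -0.97 and -0.35, and 99 of them were negative at day 0. Over all genes 68.4% had the same sign at both times. Whether a difference changed between day 0 and day 160 was tested as an interaction on all 16 arrays, which include the 8 of the day 160 comparison, so the 2 tests are not independent. This test called 34 genes (0.171%), all with a more positive difference at day 160. With the granulocyte precursor score as covariate it called 350, of which 223 were more positive and 127 more negative. The change was 3.07 ± 0.27 for Timp1 (adjusted p = 0.00011), 4.21 ± 0.39 for Saa3 (adjusted p = 0.000147) and 4.29 ± 0.49 for Mmp3 (adjusted p = 0.000924). The sizes for Saa3 and Cxcl5 are inexact, as their AIRmin means were no higher than the level of a gene without expression. Socs3 (1.90 ± 0.20), Msr1 (2.23 ± 0.24) and Slc39a14 (2.41 ± 0.30) were called as well. The change was 2.98 ± 0.49 for Cxcl5 (adjusted p = 0.021), whereas Cxcl13 (3.85 ± 0.82, adjusted p = 0.0729) and Ccl3 (2.87 ± 0.56, adjusted p = 0.0572) missed the threshold. Trem2, a lipid-sensing receptor of macrophages, changed by 1.11 ± 0.20 (adjusted p = 0.0345), from -0.41 at day 0 to 0.71 at day 160, where it was not called (adjusted p = 0.058). For Mb the change was -1.41 ± 0.49 (adjusted p = 0.41). The count of 34 was 120 without array 109, 71 without 118, 22 without 119, 17 without 112, 16 without 105 or 117 and 15 without 116.

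**Figure D5:**
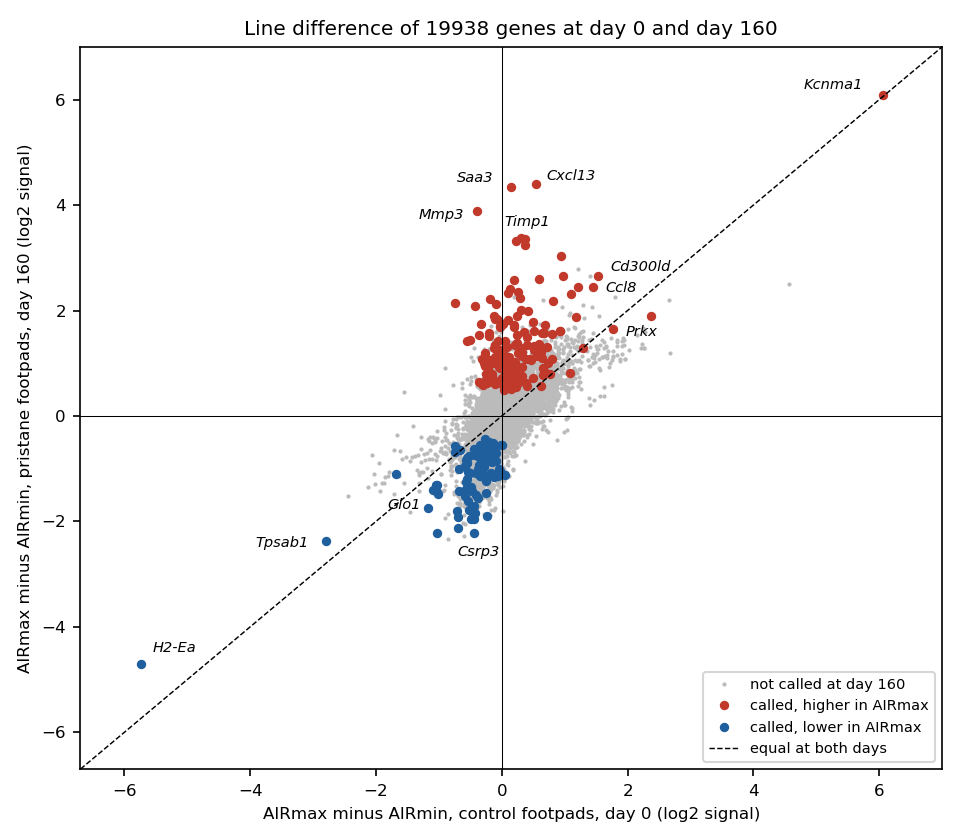
Difference between the lines (AIRmax minus AIRmin, log2 signal) of each gene in control footpads at day 0 (horizontal axis) and in pristane footpads at day 160 (vertical axis). Red and blue points are genes called higher and lower at day 160, grey points are other genes, and the dashed line marks equal differences. Kcnma1, Tpsab1 and Prkx lie near the dashed line and H2-Ea about 1 above it, while Saa3, Cxcl13, Mmp3 and Timp1 lie near 0 at day 0.

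The line difference was compared between males and females, since the AIRmax females stood above the males in some of the chemokines. Cxcl13 differed by 2.77 in males and 6.03 in females, Ccl3 by 2.02 and 4.45, Slc13a3 by 2.45 and 4.19, Clec4a3 by 1.03 and 2.60, and Mb by -1.27 and -2.41. In each of these the size of the difference was larger in females. For Ccl8 it was larger in males, and for Ccl2, Ccl7 and Ccl12 the lowest AIRmax array, 111, was from a female. Sh2d1b1, a signalling adaptor of natural killer and myeloid cells, read 4.15, 4.16, 6.0 and 5.91 in AIRmax and 3.31, 3.25, 3.40 and 3.36 in AIRmin, so that only the 2 AIRmax females stood well above the rest. With 2 arrays per sex and line, no gene passed the limma test of a difference between the sexes in the line difference (0.0% called, smallest adjusted p = 0.415). An unadjusted p under 0.05 in this test was reached by 442 of the 19938 genes, a share below 0.05. In contrast, Saa3 (4.19 and 4.51), Timp1 (3.32 and 3.43), Pdpn (2.40 and 2.43) and Cd300ld (2.61 and 2.72) gave close values in males and females.

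Called genes that adjoin each other on a chromosome, with no other measured gene between them, formed 13 pairs and no longer run. Several pairs are duplicated genes of 1 family and were described above, such as Ccl2 with Ccl7 and Ccl12 with Ccl8 on chromosome 11, Clec4a1 with Clec4a3 and Clec4n with Clec4d on chromosome 6, and Col4a1 with Col4a2 on chromosome 8. Pairs that were lower in AIRmax included the lipid transporter genes Abca8a (-0.92) and Abca8b (-0.88) on chromosome 11 and the cation pump genes Atp13a4 (-0.77) and Atp13a5 (-1.38) on chromosome 16. Whether probes of such related genes share signal was not tested.

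Single calls came from further lists. The adhesion molecule Icam1 (0.87 ± 0.15, adjusted p = 0.0329) was the only call of 19 endothelial genes, the prostaglandin E2 receptor Ptger4 (0.74 ± 0.13, adjusted p = 0.0347) of 25 prostaglandin and leukotriene genes, and the extracellular superoxide dismutase Sod3 (0.65 ± 0.09, adjusted p = 0.0204) of 16 oxidase genes. Hmox1 was the only call of 19 heme and iron genes. No gene was called by limma in the lists of osteoblasts, sweat glands, Schwann cells, eosinophils, dendritic cells, erythroid cells, immediate early genes, glycolysis, oxidative phosphorylation, ribosomal proteins or the unfolded protein response. SAM called 2 osteoblast genes and 3 each in glycolysis, oxidative phosphorylation and ribosomal proteins, and none in the other 7 lists. An unadjusted p under 0.05 was reached by 4 of 13 (median 0.19) osteoblast, 7 of 17 (median -0.38) sweat gland, 3 of 12 (median -0.28) Schwann cell, 1 of 8 (median 1.04) eosinophil and 3 of 14 (median 0.05) dendritic cell genes. It was reached by 0 of 7 (median 0.20) erythroid, 6 of 20 (median 0.07) immediate early, 9 of 21 (median 0.02) glycolysis, 4 of 29 (median -0.06) oxidative phosphorylation, 5 of 15 (median -0.21) ribosomal and 7 of 20 (median 0.30) unfolded protein response genes. Over all genes this share was 18.8%. The eosinophil median was higher still at day 0 (1.49).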

How the data were processed

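Footpad RNA (16 samples: AIRmax and AIRmin, control at day 0 and pristane at day 160, 4 each) was hybridized to Mouse Gene 1.0 ST arrays of Affymetrix. The deposited values are log2 signals that the authors had normalized: per the labels, the sample titles name gene-level RMA and the submitters' processing notes name MAS5, with no version, and the genome build is not given in the sources used here. Groups were taken from the labels. No scan date or array batch was given, and no 2 arrays held identical values. The study's methods describe the 4 arrays of a group as biological replicates.

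Of 35556 probe sets, 21789 named 1 gene, 1621 several and 12146 none. The probe set with the highest mean stood for each of 19938 genes (999 had over 1), and 21698 probe sets were matched to RefSeq by Entrez number. Lines were compared with limma 3.58.1 (lmFit and eBayes) in R 4.3.3 on the 8 arrays of a day, without covariates, and the change between days as an interaction on all 16 arrays. P values were adjusted by Benjamini-Hochberg over all genes, with a threshold of 0.05. SAM, the methods' test, was written anew over all relabellings. The other steps used Python 3.11.15, numpy 2.4.6, pandas 2.3.3 and matplotlib 3.10.9. The tests were tried on simulated data with independent noise for each gene, which lack the tissue differences between arrays described above. Named genes were the 15 largest called differences in each direction without overlap, the 10 smallest p values, the 3 smallest p values of each of 57 gene lists, the 5 most positive and 5 most negative called interactions, the 5 called genes with the smallest day 0 difference among the 30 largest, genes the study discusses, and further list members that complete a count. Krt9, Fhl1, Myoz2, Sh2d1b1 and the transporter and pump pairs were chosen after their values were seen. The comparison, members and lists were chosen with earlier results of these data known. Promoter windows came from RefSeq (GRCm38.p6). Alternatives were other probe set rules, a signal filter, other scaling, other fits and covariates, and each array left out.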

Additional observations from a re-analysis of the deposited data

Results flagged for a closer look

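Some single arrays lay far from the other 3 of their group for genes named above, with Dixon's gap ratio above its critical value for 4 samples. Of 276 groups of 4 arrays examined, 13 had such an array, and chance alone gives about 1 in 20. They were Cxcl1 at 6.43 (the highest of AIRmin pristane, array 119), Ccl3 at 4.79 (the lowest of AIRmin pristane, array 119), Ccl2 at 6.17 (the lowest of AIRmax pristane, array 111), Tnfaip3 at 7.23 (the highest of AIRmax pristane, array 112), Traf1 at 4.39 (the highest of AIRmin pristane, array 120), Clec4a3 at 5.26 (the lowest of AIRmin pristane, array 119), Clic5 at 9.84 (the highest of AIRmin pristane, array 118), Col3a1 at 11.30 (the lowest of AIRmax pristane, array 109), Col1a1 at 12.07 (the lowest of AIRmax pristane, array 109), Mb at 11.08 (the lowest of AIRmin pristane, array 120), Apobec2 at 7.58 (the highest of AIRmin pristane, array 119), Trem2 at 7.04 (the highest of AIRmin pristane, array 118) and Sod3 at 7.13 (the highest of AIRmax pristane, array 110). The AIRmin array 119 gave the lowest signal of Ccl3 and Clec4a3 and the highest of Cxcl1 and Apobec2.

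For 26 of the 138 genes given with values above, the difference between the lines was larger at day 160 than at day 0, by the limma interaction test on all 16 arrays. Over all 19938 genes this test called 34 (0.171%). Some genes were named for a large change or a large day 160 difference, so the count of 26 cannot be compared with that share. The change in the difference (log2) was, in alphabetical order, C3ar1 1.96, Ccl2 2.07, Ccl7 2.51, Cd14 2.03, Cd68 1.41, Cfb 1.72, Clec4n 2.02, Col5a2 1.95, Cthrc1 2.39, Ctsc 1.20, Cxcl5 2.98, Lox 1.79, Mmp19 1.91, Mmp3 4.29, Ms4a7 2.10, Msr1 2.23, Nos2 1.21, P4ha3 1.71, Pdpn 2.29, Saa3 4.21, Sfrp2 1.74, Slc39a14 2.41, Socs3 1.90, Timp1 3.07, Tnfaip6 2.89 and Trem2 1.11. The values of Cxcl5 and Saa3 are inexact, because their AIRmin means at day 160 were no higher than the level of a gene without expression. For Trem2 the difference itself was not called at either day.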

How the results depend on the processing

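The 271 calls at day 160 became 1519 with all 16 arrays in 1 fit (761 higher and 758 lower), 1016 with SAM (521 and 495), 173 with sex as a covariate and 157 with a minimum of 2-fold. A tissue score as a covariate gave 2 calls for skeletal muscle, 51 for keratinocytes and 767 for granulocyte precursors (423 and 344), and 697 genes were called without arrays 109, 112, 118 and 120. The precursor and keratinocyte settings and this omission were chosen after seeing the data. Leaving out 1 array gave 14 to 520 calls. The 16 calls at day 0 became 7 among genes above the median signal, 27 after quantile normalization, 35 in the 16-array fit, 31 with sex, 7 with the precursor score, and 9 to 19 without 1 array. The 34 changes between days became 61 on standardized arrays, 7 with the muscle score, 350 with the precursor score (223 more positive and 127 more negative), and 15 to 120 without 1 array. Between 205 and 337 genes were called at day 160 with probe sets averaged per gene, each probe set on its own, genes above the median only, standardized or quantile-normalized arrays, and a trended prior. The cause of these changes was not tested. No called difference of a gene named above changed sign under any alternative run. No paired analysis was possible because the labels number the arrays through the series and no number is shared between groups. With 4 arrays a line, precision rests on few animals.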
